A study of Mus musculus with 36 samples.

Results

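The genes described here encode the cell-surface machinery and the main cytoplasmic brake of the Hedgehog pathway: Ptch1, Hhip, Gas1, Cdon, Boc, Smo and Sufu. They were taken by matching these 7 symbols to the Ensembl gene identifiers of the gene tables, which hold 51912 identifiers, and each symbol matched 1 identifier. All 7 passed the filter on low counts and were among the 17990 genes tested. They were chosen by name for their roles, with earlier results of these data known, and no value in these libraries was used as a threshold.

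The data are polyA RNA-seq libraries from HM1, a mouse embryonic stem cell line, differentiated towards spinal motor neurons. All cells were first given bFGF at 10 ng/ml from day -3, and on day -1 bFGF together with 5 µM CHIR99021, a GSK3 inhibitor that activates Wnt signalling, 10 µM SB431542 and 2 µM DMH1, inhibitors of Activin/Nodal and BMP receptors. Day 0, labelled control, was collected after these steps, and the cells of days 0.5, 1, 1.5, 2, 2.5, 3, 3.5, 4, 5, 6 and 7 had been in 100 nM RA (retinoic acid) and 500 nM SAG since day 0. Each of the 12 time points has 3 libraries (36 in all), with 26567321 to 35757989 counts per library. No untreated cells of the later days are among the samples, so the effects of RA, SAG and elapsed time cannot be told apart. A single line was used, and the titles call the replicates biological (bioreps) without saying what was separate, such as the culture or the day, so every p-value below measures the spread between these libraries.

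In the Hedgehog pathway, Ptch1 holds the transmembrane protein Smo inactive until a Hedgehog ligand binds Ptch1. Active Smo relieves the inhibition of the Gli transcription factors by Sufu, and Gli1, Ptch1 and Hhip are direct target genes, so the latter pair form a negative feedback loop. Gas1, Cdon and Boc are membrane proteins that bind the ligand together with Ptch1 as co-receptors, and in the embryonic neural tube they are known as genes that Hedgehog signalling reduces. SAG binds Smo itself and so acts downstream of Ptch1 and the co-receptors.

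Levels are given as TPM, transcript counts scaled to library total that are corrected for gene length and may be compared between genes. Changes between time points are log2 fold changes of the counts after TMM scaling, each with an approximate standard error (SE) and a p-value from edgeR's quasi-likelihood test adjusted by Benjamini-Hochberg over all genes tested. A gene is said to have risen or fallen when this adjusted p was under 0.05. In bulk RNA, a change in the share of cells that express a gene and a change in the RNA per cell cannot be told apart.

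Before SAG, Smo was the most abundant of the 7 at 84.9 ± 5.03 TPM (SD, n = 3), followed by Sufu at 35.3 ± 1.41 and Ptch1 at 21.3 ± 1.13. Boc, Cdon and Gas1 lay between 6.23 and 8.39 TPM on average, and Hhip was lowest at 0.367 ± 0.0808. At day 0.5 Ptch1 stood first, and it remained first in mean TPM at every later time point, followed by Smo and then Sufu. At day 7 the order was Ptch1, Smo, Sufu, Cdon, Boc, Gas1 and Hhip. The 7 genes differed in how far they moved: the ratio of the highest to the lowest time-point mean was 46.3 for Hhip, 29.1 for Ptch1, 4.65 for Gas1, 2.47 for Cdon, 1.78 for Boc, 1.49 for Sufu and 1.42 for Smo.

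**Figure D1:**
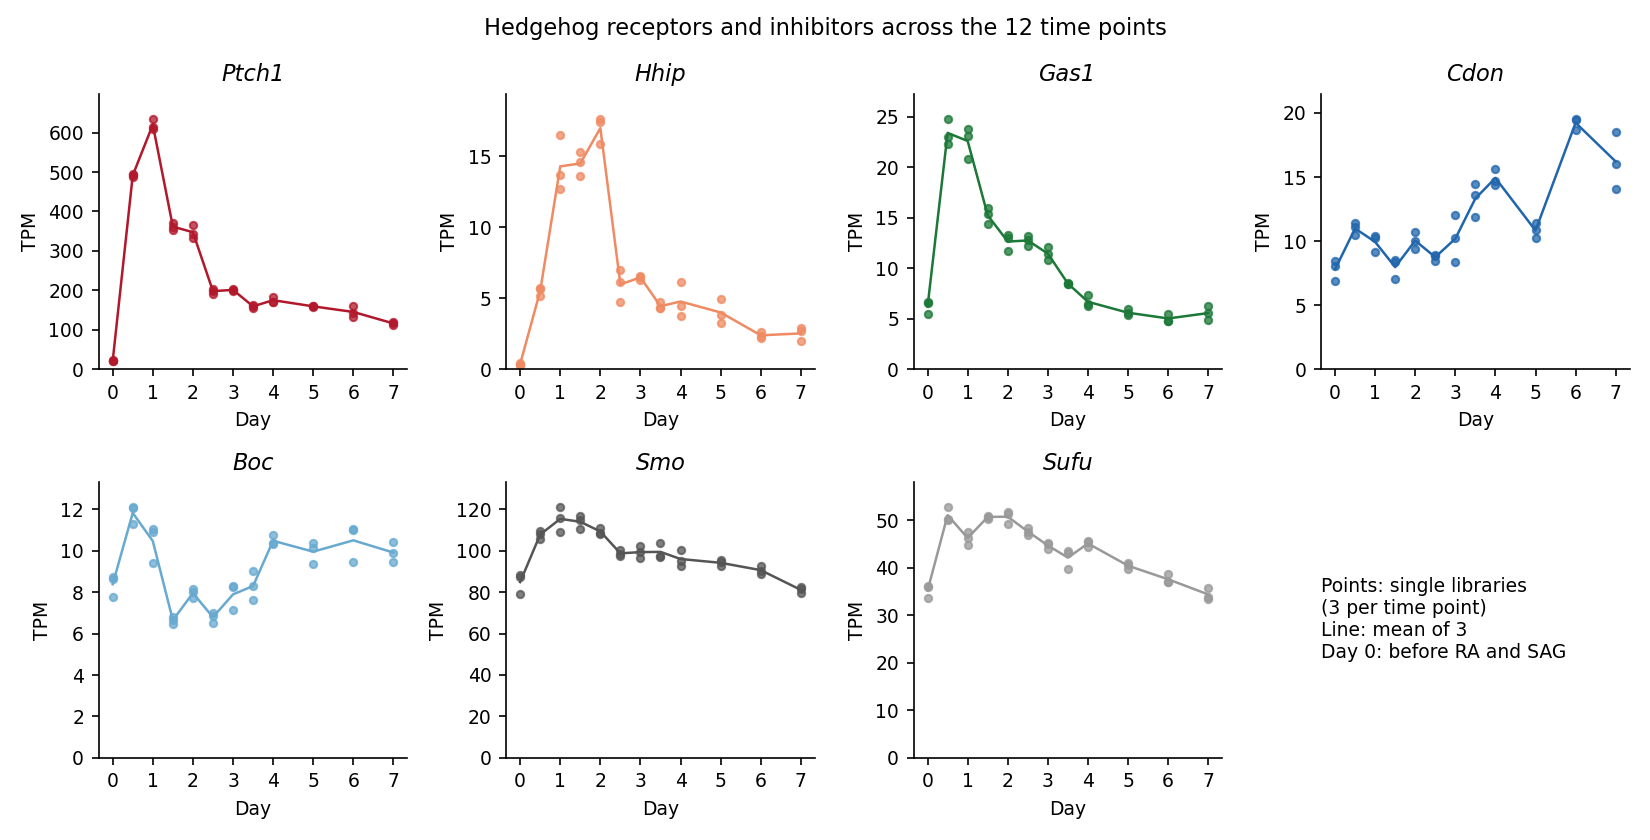
Abundance of the 7 Hedgehog genes in TPM (vertical axes, each starting at 0 with its own scale) against day (horizontal axes). Points are single libraries, 3 per time point, and lines join the means. Ptch1 climbs from 21.3 to 619.9 TPM by day 1 and is at 116 TPM on day 7, Hhip is highest on day 2, Gas1 on day 0.5 and Cdon on day 6, while Smo and Sufu stay within a narrow band.

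Ptch1 (ENSMUSG00000021466, chr13:63508328-63573598, minus strand, GRCm38) encodes the receptor that inhibits Smo. Hhip (ENSMUSG00000064325, chr8:79965851-80058006, minus strand) encodes a membrane-attached and shed protein that binds Hedgehog ligands and keeps them from the receptor. Gas1 (ENSMUSG00000052957, chr13:60174405-60177365, minus strand) encodes a co-receptor held to the membrane by a lipid anchor. These were the members with the largest rise at day 0.5, and the 250 bases before their RefSeq start sites (GRCm38.p6, each read along the minus strand of its gene) are shown for that reason. Capitals mark the GC box (GGGCGG or CCGCCC) and the CCAAT box (CCAAT or ATTGG).
Ptch1: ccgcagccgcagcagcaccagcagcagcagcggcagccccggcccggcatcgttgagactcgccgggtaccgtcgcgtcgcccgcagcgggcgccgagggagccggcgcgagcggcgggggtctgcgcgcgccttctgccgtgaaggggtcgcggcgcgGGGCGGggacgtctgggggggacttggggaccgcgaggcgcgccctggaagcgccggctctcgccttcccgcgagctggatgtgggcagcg
Hhip: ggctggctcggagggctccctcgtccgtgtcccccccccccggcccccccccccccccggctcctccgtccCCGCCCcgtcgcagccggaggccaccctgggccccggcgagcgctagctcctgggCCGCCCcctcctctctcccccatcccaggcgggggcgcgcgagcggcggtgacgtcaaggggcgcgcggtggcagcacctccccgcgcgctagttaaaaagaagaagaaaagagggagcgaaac
Gas1: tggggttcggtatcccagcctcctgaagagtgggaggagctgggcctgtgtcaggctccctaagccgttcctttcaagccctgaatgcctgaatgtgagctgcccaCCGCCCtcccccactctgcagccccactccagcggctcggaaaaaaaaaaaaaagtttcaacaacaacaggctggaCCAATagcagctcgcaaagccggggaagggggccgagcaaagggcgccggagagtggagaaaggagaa
The windows are chr13:63565736-63565985 for Ptch1, chr8:80058009-80058258 for Hhip and chr13:60177536-60177785 for Gas1. The Ptch1 window holds 41 CpG dinucleotides at 78.4% GC and 1 GC box, and the Hhip window holds 28 CpG at 76% GC and 2 GC boxes. The Gas1 window is poorer, with 10 CpG at 58.8% GC, 1 GC box and 1 CCAAT box. Over all 32851 RefSeq windows of this length the median was 6 CpG and 52.4% GC, 32.7% held a GC box and 33.8% a CCAAT box. The GLI binding motif GACCACCCA, or TGGGTGGTC on the other strand, was in 0 of the 6 members' windows and in 0.225% of all windows. A motif that is not in a window says nothing about binding elsewhere. RefSeq's Ptch1 start lies 7863 bases from the one in GENCODE M21, so the Ptch1 window is inside the gene as GENCODE annotates it. The same holds for the Cdon window, whose RefSeq start lies 30948 bases from that of GENCODE. Boc has no entry in the table of windows.

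Ptch1 rose more than any other member in the first comparison. The 3 day 0 libraries had 21.1, 22.5 and 20.2 TPM and the 3 day 0.5 libraries 493, 495 and 487, a log2 fold change of 4.42 (SE 0.05, adjusted p = 1.07e-35, edgeR), which is 21.4-fold on the count scale. It rose further to 614, 609.9 and 635 TPM at day 1 (log2 0.33, SE 0.04, adjusted p = 8.27e-08, edgeR), its highest level. The groups of days 0, 0.5 and 1 did not overlap. Every treated library, also on day 7, lay above all day 0 libraries.

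The decline of Ptch1 came in steps. It fell at day 1.5 (372, 359.8 and 353 TPM, log2 -0.76, SE 0.04, adjusted p = 7.64e-16, edgeR). At day 2 its libraries had 333, 366 and 344 TPM, overlapping those of day 1.5, and the change of log2 -0.17 passed (adjusted p = 0.000854) but not without replicate 1 of day 2 (log2 -0.09, adjusted p = 0.0988, edgeR). The second large fall was at day 2.5, to 203, 192 and 199 TPM (log2 -0.89, SE 0.04, adjusted p = 1.26e-17, edgeR). Between day 2.5 and day 3 the level was flat within the spread, at 198 ± 5.62 and 201 ± 3.06 TPM. A smaller fall followed at day 3.5, to 159.6 ± 3.38 TPM (log2 -0.35, SE 0.04, adjusted p = 1.02e-07, edgeR). At day 4 the TPM was higher again, at 175 ± 7.95 and without overlap (log2 0.13, adjusted p = 0.0283, limma on log2(TPM + 0.1)). In counts that change did not pass (log2 0.06, adjusted p = 0.315, edgeR). Day 7 ended at 121, 116 and 112 TPM. Day 7 was still 3.83-fold above day 0 on the count scale.

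Hhip rose at the same first steps as Ptch1 and held its level to day 2. Its counts were low at the start, 35 to 47 per library on day 0, or 0.320, 0.460 and 0.320 TPM. At day 0.5 the libraries had 5.62, 5.19 and 5.73 TPM (log2 3.74, SE 0.12, adjusted p = 4.19e-23, edgeR). At day 1 they had 13.7, 12.7 and 16.4 TPM, a further log2 1.49 (SE 0.08, adjusted p = 3.3e-17, edgeR). Hhip held that level through day 1.5 (14.5 ± 0.854 TPM) and day 2 (17.4, 17.6 and 15.9 TPM), when Ptch1 had already fallen, and the log2 changes of 0.04 at both of these steps did not pass.

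The fall of Hhip then came at day 2.5, to 7.01, 6.15 and 4.76 TPM (log2 -1.44, SE 0.08, adjusted p = 7.54e-17, edgeR), the same step as the second fall of Ptch1 and the largest downward step of any member. It fell again at day 3.5, from 6.53, 6.58 and 6.30 TPM on day 3 to 4.30, 4.73 and 4.30, without overlap (log2 -0.47, SE 0.08, adjusted p = 2.69e-05, edgeR). A later step took it from 4.00 ± 0.871 TPM on day 5 to 2.39 ± 0.230 on day 6 (log2 -0.74, SE 0.09, adjusted p = 3.83e-08, edgeR). The libraries of days 2.5 and 3 overlapped, as did those of days 3.5, 4 and 5. All treated libraries lay above all day 0 libraries, and day 7 (2.70, 1.97 and 2.91 TPM) exceeded day 0 by log2 2.49 (SE 0.13, adjusted p = 3.8e-18, edgeR).

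Gas1 rose once and then fell almost continuously. It went from 5.50, 6.62 and 6.56 TPM on day 0 to 24.8, 22.3 and 23.0 on day 0.5 (log2 1.92, SE 0.08, adjusted p = 2.96e-20, edgeR). Day 1, at 20.9, 23.8 and 23.1 TPM, overlapped day 0.5, and leaving out replicate 1 of every time point put the highest mean on day 1. Falls followed at day 1.5 (log2 -0.52), day 2 (-0.41), day 3.5 (-0.44) and day 4 (-0.45), each with an adjusted p of 6.56e-05 or less by edgeR. At the day 2.5 step, where Ptch1 and Hhip fell, Gas1 had 12.6 ± 0.824 and 12.8 ± 0.471 TPM and its log2 change was -0.03 (SE 0.08, adjusted p = 0.811, edgeR). By day 4 its libraries overlapped those of day 0, and on day 6 the 4.81, 5.49 and 4.80 TPM were the lowest. Exons of Gas1 overlap the noncoding gene Gm48488 on the other strand, which was not analysed here, and whether counting used strand is not given in the sources used here, so its values are uncertain to that extent.

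Cdon (ENSMUSG00000038119, chr9:35421128-35507652, plus strand), an immunoglobulin-family co-receptor, moved the other way from Gas1 in the later days. It rose at day 0.5 from 8.47, 8.03 and 6.89 TPM to 11.1, 10.4 and 11.4 (log2 0.53, SE 0.07, adjusted p = 3.27e-08, edgeR), without overlap. It fell at day 1.5 to 7.03, 8.49 and 8.40 TPM (log2 -0.28, adjusted p = 0.000709, edgeR), which overlapped day 0 again. It rose at day 3.5 (log2 0.26, SE 0.07, adjusted p = 0.00148, edgeR) to 13.3 ± 1.30 TPM. The highest level was on day 6 with 19.5, 19.6 and 18.7 TPM, after a rise of log2 0.48 over day 5 (SE 0.06, adjusted p = 1.07e-07, edgeR). Cdon was the only member whose mean was higher on day 7 than on day 0.5 by edgeR (log2 0.20, SE 0.06, adjusted p = 0.00433).

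At some steps the TPM of Cdon moved more than its counts did. The length that its counts and TPM together imply was scaled in each library on 872 genes with 1 annotated transcript. This length was 5583 ± 681 bases on day 2, 7282 ± 82.4 on day 5 and 6152 ± 119 on day 6 (SD, n = 3). Cdon has 6 annotated transcripts, and single transcripts were not measured in the tables used here. For Boc, with 1 annotated transcript, the same length stayed between 4538 and 4545 bases in all libraries. The dip of Cdon on day 5, from 14.9 ± 0.645 to 10.8 ± 0.575 TPM, was log2 -0.19 in counts (adjusted p = 0.0214, edgeR) and did not pass without replicate 1 or 3 of day 4 (adjusted p = 0.0673 and 0.0560) or replicate 1 or 3 of day 5 (0.0580 and 0.100). At day 2 its direction depended on the scale, with log2 -0.05 in counts (adjusted p = 0.573, edgeR) and 0.33 in TPM (adjusted p = 0.0109, limma). TPM changes given with limma are on the log2(TPM + 0.1) scale, which understates the change of low genes.

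Boc (ENSMUSG00000022687, chr16:44485049-44558897, minus strand), a close relative of Cdon, rose at day 0.5 by about as much as Cdon, from 7.79, 8.74 and 8.63 TPM to 11.3, 12.1 and 12.1 (log2 0.50, SE 0.07, adjusted p = 1.15e-07, edgeR). It fell at day 1.5 to 6.82, 6.67 and 6.45 TPM (log2 -0.61, SE 0.07, adjusted p = 6.24e-09, edgeR), below every day 0 library. A second fall at day 2.5, from 7.96 ± 0.208 to 6.79 ± 0.235 TPM, was log2 -0.26 (adjusted p = 0.00226, edgeR). It then rose to 10.3, 10.4 and 10.8 TPM on day 4 (log2 0.23 over day 3.5, adjusted p = 0.00879, edgeR), a call that was lost without replicate 3 of day 3.5 (log2 0.17, adjusted p = 0.0848). From day 4 to day 7 the means lay between 9.91 and 10.5 TPM, and libraries of neighbouring days overlapped.

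Smo (ENSMUSG00000001761, chr6:29735503-29761365, plus strand), the signal-transducing protein that SAG binds, rose at day 0.5 from 79.1, 87.3 and 88.2 TPM to 108, 106 and 109.7 (log2 0.35, SE 0.04, adjusted p = 3.67e-08, edgeR). It was highest on day 1, at 115 ± 6.01 TPM, or on day 1.5 on the count scale. Days 0.5 to 2 overlapped each other in the order of levels. It fell at day 2.5 (log2 -0.18, SE 0.04, adjusted p = 0.000808, edgeR) to 98.7 ± 1.41 TPM, and on day 7 the 81.6, 82.3 and 79.4 TPM overlapped day 0.

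Sufu (ENSMUSG00000025231, chr19:46396896-46488804, plus strand), which holds Gli proteins in the cytoplasm and favours their repressor forms, followed a similar course. It rose at day 0.5 from 33.6, 35.9 and 36.2 TPM to 50.2, 52.8 and 50.4 (log2 0.53, SE 0.04, adjusted p = 5.63e-13, edgeR). It stayed between 46.3 and 51.1 TPM on average through day 2.5, and its day 7 libraries (34.0, 33.5 and 35.8 TPM) overlapped those of day 0. The ratio of Smo to Sufu TPM within a library kept to time-point means between 2.07 on day 2.5 and 2.49 on day 1. The libraries of these days did not overlap (2.03 to 2.10 and 2.43 to 2.54). The genes did not move together at every step. At day 1 Sufu fell (log2 -0.15, adjusted p = 0.00226, edgeR) and at day 1.5 it rose, while Smo did not pass at either step (log2 0.09 and 0.03, adjusted p = 0.110 and 0.601, edgeR).

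**Figure D2:**
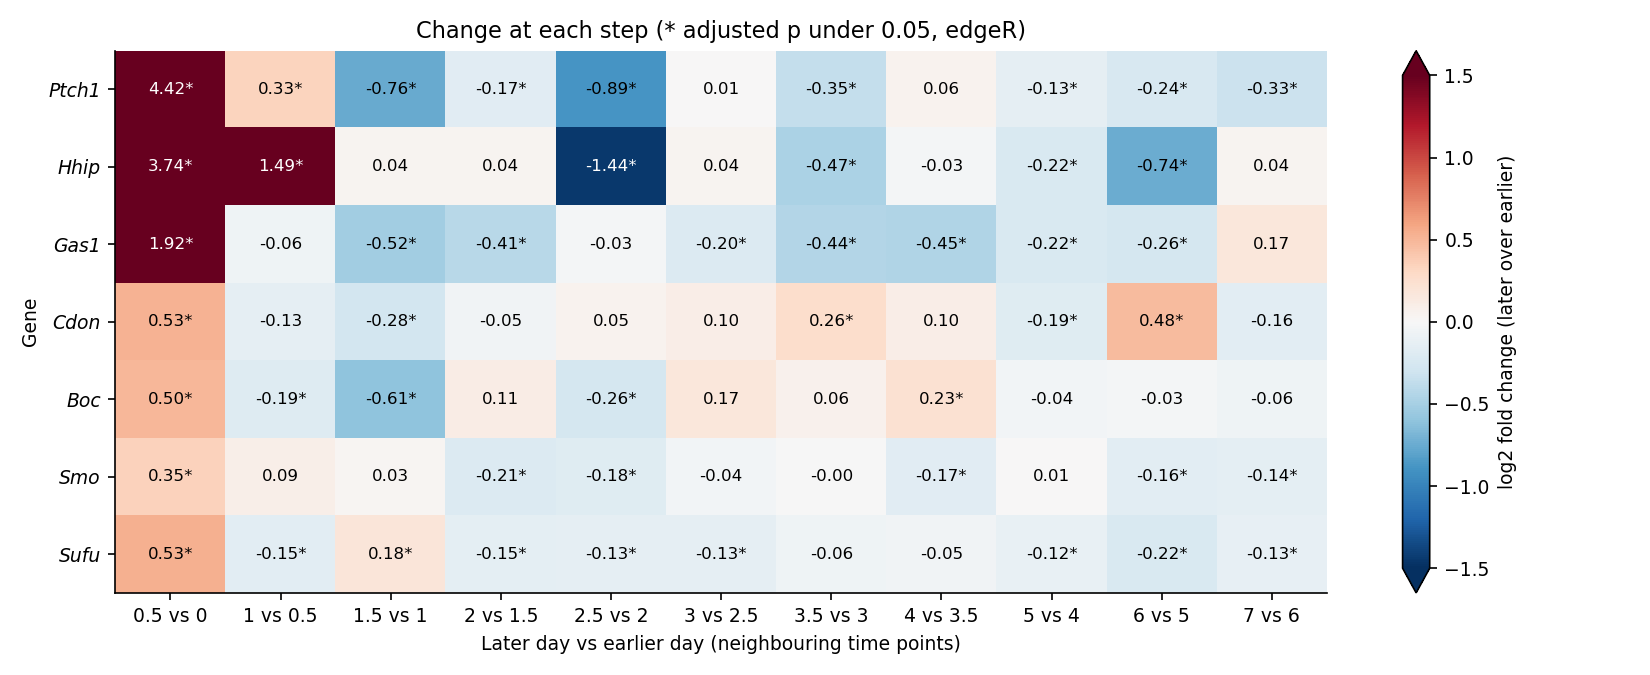
Log2 fold change of each of the 7 genes (rows) at each of the 11 steps between neighbouring time points (columns), later over earlier, on the count scale. Colour shows the change, clipped at 1.5 in either direction, and an asterisk marks an adjusted p under 0.05 by edgeR. All 7 are positive and marked at day 0.5, and Ptch1 and Hhip have their darkest falls at day 2.5. In TPM (limma) the sign differs for 11 of the 77 values, 8 of them called on neither scale, and the others are Cdon at day 2 (0.33 in TPM) and Sufu at days 2 (0.00077) and 4 (0.10).

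At day 0.5 all 7 members rose, where 54.3% of all tested genes were called and 27.6% rose. The median change was log2 0.53 over the members and 0.00 over all genes tested. The TPM ranges of days 0 and 0.5 were apart for all 7 (56.6% of all genes), and 3 members, Ptch1, Hhip and Gas1, changed at least 2-fold (13.8% of all genes). The count of 7 was the same in each of the 6 fits that left out 1 library. At day 1, 4 members were called (47.5% of all genes), 2 higher (Ptch1 and Hhip, 23.3% of all genes) and 2 lower (Boc and Sufu, 24.3%), and the call on Boc, log2 -0.19, was lost without replicate 2 or 3 of day 0.5 (adjusted p = 0.0690 and 0.0697, edgeR) or replicate 3 of day 1 (adjusted p = 0.175).

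At day 1.5, 5 members were called, 4 of them lower (46.4% of all genes were called, 19.4% lower). Sufu was the member that rose (log2 0.18, SE 0.04, adjusted p = 0.000423, edgeR). At day 2, 4 were lower and 0 higher (53.3% called, 27.2% lower), but TPM shifted against counts at this step by a median of log2 0.15 over 10321 genes, and 2 were called without replicate 1 of day 2. In TPM (limma) Ptch1, Smo and Sufu did not pass at this step, while Cdon (log2 0.33) and Boc (log2 0.26, adjusted p = 0.00682) were higher. At day 2.5, 5 of 7 were lower and 0 higher, beside 47.8% of all genes called and 22.9% lower. The medians were log2 -0.18 over the members and 0.00 over all genes. The call on Sufu (-0.13, adjusted p = 0.00697) was lost without replicate 2 of day 2 (adjusted p = 0.0561, edgeR). The members that did not pass at day 2.5 were Gas1 and Cdon (log2 0.05, SE 0.07, adjusted p = 0.549, edgeR). In TPM the libraries of Cdon lay lower at day 2.5, at 8.47 to 8.92 against 9.37 to 10.7 on day 2, without overlap, and that change did not pass either (log2 -0.19, adjusted p = 0.151, limma).

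The later steps were smaller for most members. The calls were 2 at day 3 (34.4% of all genes), 4 at day 3.5 (40.8%), 3 at day 4 (40.2%), 5 at day 5 (38%), 6 at day 6 (50.5%) and 3 at day 7 against day 6 (20.3%). Several of these rest on single libraries: leaving out 1 library at a time gave 1 to 2 calls at day 3, 1 to 4 at day 5 and 1 to 3 at day 7, so single small changes at those steps are given here as counts only. Day 6 was firmer when 1 library was left out, with 5 to 6 calls, and combined falls of Ptch1 (log2 -0.24), Hhip (-0.74), Smo (-0.16), Gas1 (-0.26) and Sufu (-0.22) with the rise of Cdon. Of these, Gas1 was lost without replicate 2 of day 5 (adjusted p = 0.0703, edgeR) or replicate 3 of day 6 (0.0988) and with only the libraries compared (0.0512). In TPM neither Gas1 (log2 -0.15, adjusted p = 0.155, limma) nor Smo (log2 -0.06, adjusted p = 0.276) passed. The TPM libraries of days 5 and 6 overlapped for both, and also for Ptch1 (158 to 160.4 on day 5 and 133 to 159.6 on day 6). Over days 0.5 to 7 all 7 members differed between time points (adjusted p from 4.24e-35 for Ptch1 to 5.86e-14 for Boc, edgeR), as did 94.8% of all genes.

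Marker genes of the cell types that such a culture can hold changed over the same days. The summed TPM of 8 markers of caudal epiblast and neuromesodermal cells went from 853 to 939 on day 0 to 207 to 259 on day 0.5 (lowest to highest library) and 1.39 to 2.37 on day 7. Over the same first step 8 neural progenitor markers went from 136 to 137 up to 746 to 806. At the day 2.5 step, where Ptch1 and Hhip fell, 10 neuron markers went from 716 to 806 up to 1765 to 2048, the neural progenitor sum from 972 to 1091 down to 779 to 831, and 8 cell cycle genes from 1838 to 2040.3 down to 1711 to 1793. All of the neuron, neural progenitor and cell cycle markers were detected in each library of these days. By edgeR all 10 neuron markers rose at day 2.5. Of the 8 neural progenitor markers 5 fell and 1 rose, and of the 8 cell cycle genes 4 fell and 0 rose. Over all genes tested, 24.9% rose and 22.9% fell at this step. Olig2 and Nkx6-1 are in the neural progenitor list and also in the list of Hedgehog target genes below. The part of these shifts in the changes of the Hedgehog genes was not tested.

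By day 6, when Cdon was highest, the 6 floor plate markers summed to 2838 to 2893 TPM and the 6 glial progenitor markers to 3222 to 3474. On day 0 they had been 27.6 to 30.5 TPM and 13.0 to 15.4. The libraries are labelled neural progenitors throughout, and from day 2.5 on the summed neuron markers exceeded the summed neural progenitor markers in every library. Sums over lists of different genes do not measure shares of cells. The glial progenitor sum was in turn above the neuron sum on day 6 (2184 to 2599 TPM for neuron markers). The same held on day 7 (3450 to 3602 against 2726 to 2917 TPM). Markers outside the neural lineage stayed lower: after day 0.5 endothelial markers summed to at most 111 TPM, paraxial mesoderm to 19.9 with Msgn1 at 0 in all libraries, neural crest to 40.9 and blood or microglia to 9.70, with Cx3cr1 at 0 at most time points. Endoderm and epithelium markers summed to 447 to 462 TPM on day 0 and to 27.8 to 40.3 on day 2.5, and were higher again at 101 to 112 on day 6 and 94.0 to 120.0 on day 7. The part of these markers in the levels of the 7 genes was not tested.

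**Figure D3:**
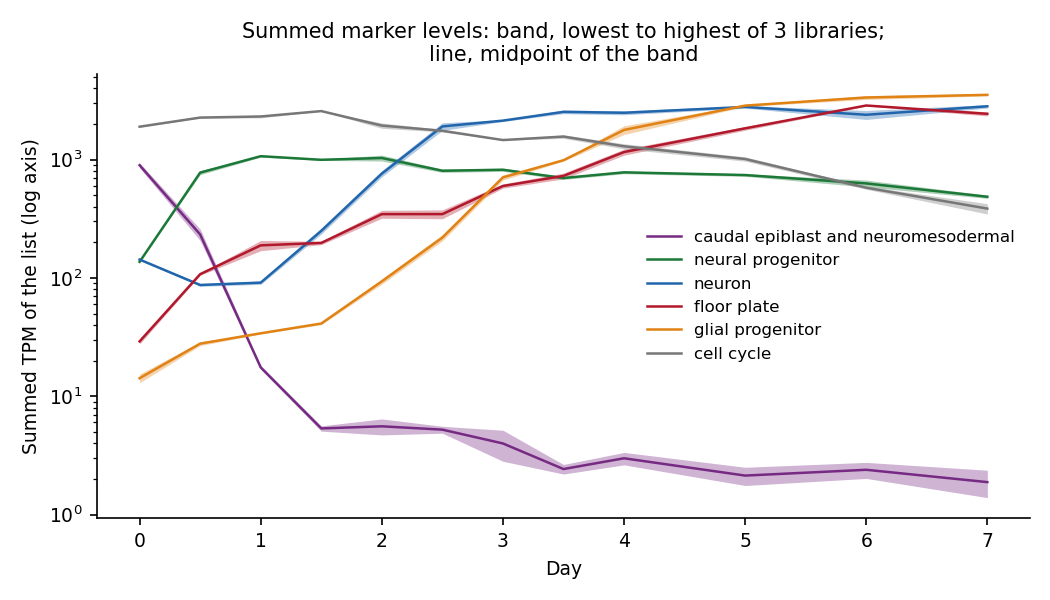
Summed TPM of 6 marker lists (vertical log axis) against day. Each band spans the lowest to the highest of 3 libraries and the line is its midpoint. Caudal epiblast markers drop up to day 1.5, neuron markers climb between days 1 and 2.5, and on day 6 the floor plate band spans 2838 to 2893 TPM while that of the cell cycle genes spans 561 to 596.

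Ratios of TPM within a library compare the bulk transcript levels of receptor, transducer and inhibitor genes. They do not measure protein or the balance within a cell. They were chosen after the levels had been seen and are given as a description. Ptch1 over Gli1 and Cdon over Boc were compared between days 7 and 0. Ptch1 over Hhip was compared between days 2 and 0.5, and Cdon over Gas1 between days 7 and 0.5. An exact permutation test gave p = 0.1 for each of these 4 comparisons. With 3 against 3 libraries the exact permutation test cannot give a lower value, so none could pass 0.05. Ptch1 over Smo was 0.251 ± 0.0197 on day 0, 4.56 ± 0.124 on day 0.5 and 5.39 ± 0.390 on day 1 (SD, n = 3). It was 3.18 ± 0.109 on day 2, 2.01 ± 0.0342 on day 2.5 and 1.43 ± 0.0416 on day 7, so Ptch1 transcripts stayed in excess of Smo in every treated library. Ptch1 over Hhip was 89.4 ± 5.38 on day 0.5 and 20.5 ± 1.27 on day 2, with no overlap, and returned to 61.3 ± 10.6 on day 6.

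The 2 feedback inhibitors and Gli1 did not keep a fixed proportion. Gli1, a transcription factor and target of the pathway, rose at day 0.5 from 6.49 ± 0.322 to 85.3 ± 1.96 TPM and fell to 74.6 ± 2.28 on day 2, 21.5 ± 4.68 on day 2.5 and 4.47 ± 0.624 on day 7. Ptch1 over Gli1 was 3.29 ± 0.281 on day 0 and between 4.66 and 5.76 on average from day 0.5 to day 2. It then climbed to 23.9 ± 0.974 on day 3.5 and 50.3 ± 10.6 on day 6, and was 26.4 ± 4.20 on day 7, where its libraries (25.6, 30.9 and 22.6) lay above those of day 0. Day 7 Gli1 was lower than day 0 (log2 -0.82, SE 0.13, adjusted p = 3.94e-07, edgeR), while Ptch1 was higher (log2 1.94, SE 0.05, adjusted p = 2.75e-28). Gli1 shares exon sequence with Arhgap9 and Gm47200 on the other strand, so its values are uncertain where counts ignore strand.

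Among co-receptors, Cdon over Boc was 0.935 ± 0.145 on day 0 and 1.63 ± 0.213 on day 7, without overlap. Cdon over Gas1 was 0.470 ± 0.0249 on day 0.5, when Gas1 was the most abundant co-receptor, and 2.95 ± 0.610 on day 7, when it was the least abundant. Counts of Cdon and Boc at day 7 against day 0 gave log2 0.73 and -0.12, so both scales place Cdon higher relative to Boc at the end.

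**Figure D4:**
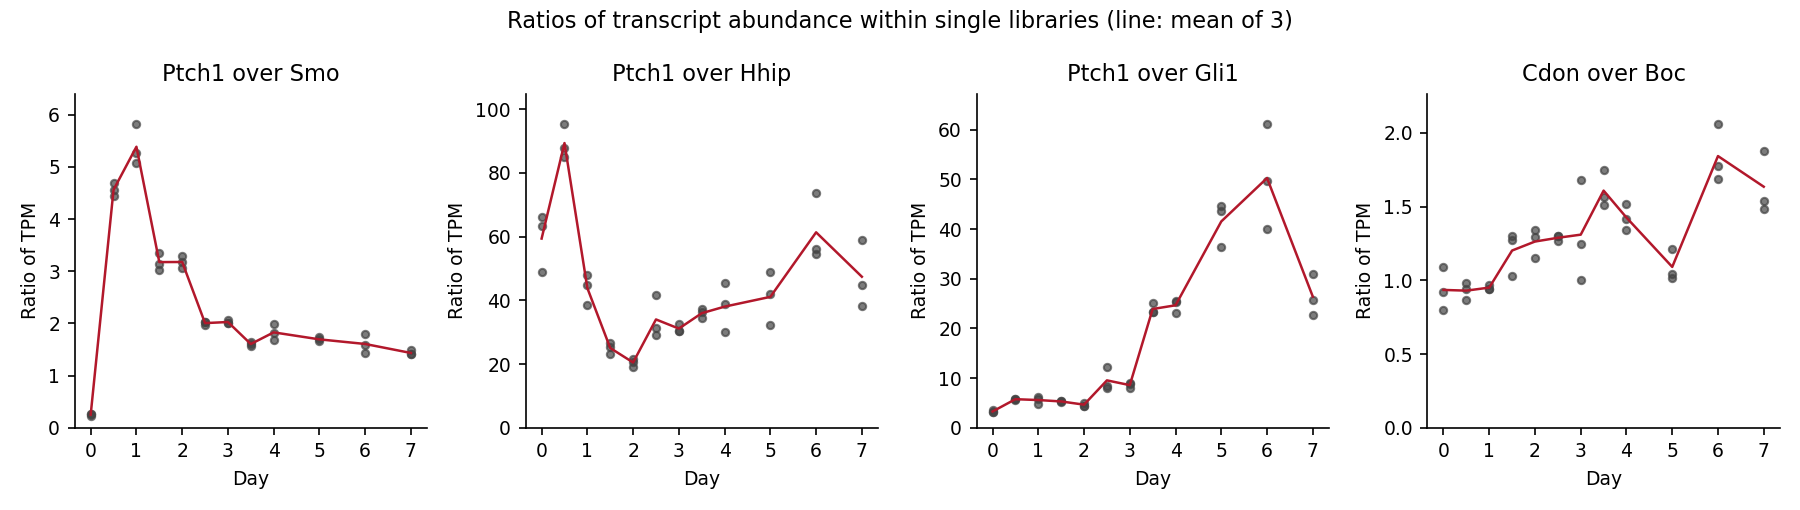
Ratios of TPM within single libraries (vertical axes, starting at 0) against day. Points are libraries, 3 per time point, and lines join the means. Ptch1 over Smo peaks at 5.39 on day 1, Ptch1 over Hhip has its low of 20.5 on day 2, Ptch1 over Gli1 is at 23.9 on day 3.5 and 50.3 on day 6, and Cdon over Boc is highest on day 6 at 1.84.

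Other genes of the pathway were read from lists of known components. The lists were also chosen with earlier results of these data known, so the counts from them, here and below, are descriptions. Of 9 other Hedgehog receptors and ligand-binding or ligand-release proteins, 6 rose and 0 fell at day 0.5, with a median of log2 0.38, beside 27.6% of all genes higher and 26.7% lower. Scube2, which helps release the ligand, rose by log2 5.35 (SE 0.18, adjusted p = 1.46e-22, edgeR), from 9 to 12 counts per library on day 0. The glypican Gpc3, which competes with Ptch1 for ligand, rose by log2 1.84 (SE 0.07, adjusted p = 1e-21, edgeR). At day 2.5, 6 of the 9 fell and 0 rose (22.9% of all genes lower, 24.9% higher). The endocytic receptor Lrp2 was among those that fell (log2 -0.87, adjusted p = 5.68e-05, edgeR).

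Of 14 Gli factors and target genes, 11 rose and 0 fell at day 0.5 (median log2 1.84), and 0 rose and 11 fell at day 2.5 (median -0.62). Over all genes 27.6% rose at day 0.5 and 22.9% fell at day 2.5. The fall at day 2.5 included Gli1 (log2 -1.86, SE 0.09, adjusted p = 4.09e-18, edgeR), Gli2 (-1.21, SE 0.10, adjusted p = 4.91e-12), the main activator, and Gli3 (-0.50, SE 0.07, adjusted p = 1.61e-07), the main repressor. Beside these stand the changes of Hhip (-1.44) and Ptch1 (-0.89) at the same step, and the differences between genes were not tested. Day 7 against day 0 gave 5 higher and 8 lower (44.1% and 41.2% of all genes). Gli2 was at log2 -3.87 (SE 0.11, adjusted p = 8.38e-26, edgeR) and Gli3 at -4.11 (SE 0.08, adjusted p = 8.48e-31, edgeR). The patterning factors Nkx2-2 (11.17), Olig2 (8.35), Foxa2 (7.25) and Nkx6-1 (6.63) were higher. Nkx2-2 had 1 to 3 counts per library on day 0 and Olig2 3 to 7, so the size of their changes is uncertain. Exons of Gli3 and Nkx2-2 overlap Gm6556 and Nkx2-2os on the other strand, with the same limit as for Gli1.

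The ligand Shh was near the floor at the start, at 0.193 ± 0.0208 TPM on day 0 and 1.72 ± 0.263 on day 1. It reached 29.4 ± 4.14 TPM on day 2, 206 ± 15.7 on day 4 and 410.1 ± 26.1 on day 6. On days 0.5 and 1, when Gas1 and Ptch1 had their highest means, the Shh level was thus far below that of the last days, when both were lower. Of the 3 ligand genes only Shh had enough counts to be tested. Exons of Shh overlap 2 genes on the other strand, with the same limit as for Gli1.

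Of 22 genes that act between Smo and Gli, 12 rose and 3 fell at day 0.5 (median log2 0.21), where 27.6% of all genes rose and 26.7% fell. Those that rose included the ciliary receptor Gpr161, a brake on the pathway (log2 0.68, SE 0.06, adjusted p = 4.53e-11, edgeR), and Evc, which works next to Smo in the cilium (0.60, SE 0.07, adjusted p = 1.07e-08). At day 2.5, 8 rose and 7 fell (24.9% and 22.9% of all genes), with Evc2 at log2 -0.80 and Stk36 at 0.68. Gpr161 was higher on day 7 than on day 0 by log2 2.51 (SE 0.06, adjusted p = 1.12e-28, edgeR), as was Stk36 (2.34, SE 0.07, adjusted p = 2.3e-25), while Evc2 was lower (-2.41, SE 0.10, adjusted p = 8.85e-22). Of 5 tested genes in a list of membrane attenuators and ciliary transition zone proteins, 1 rose (Tctn1, of the transition zone, log2 0.59) and 2 fell (among them Mosmo, -0.34) at day 0.5. Exons of Tctn1 overlap Hvcn1 and Gm15481 on the other strand, with the same limit as for Gli1.

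Over the 36 libraries, log2 CPM (TMM-scaled counts relative to library size) of Ptch1 and Hhip had a Pearson r of 0.92, Smo and Sufu 0.95, Smo and Gas1 0.91, and Gas1 and Sufu 0.91. Cdon had r of 0.00 to Ptch1, -0.16 to Hhip, -0.58 to Sufu and 0.33 to Boc. Boc had r between -0.06 (Hhip) and 0.33 (Cdon) to the other members, and on log2(TPM + 1) its r to Smo, Gas1 and Sufu was negative (-0.14, -0.09 and -0.21). These are descriptions over 12 time points with 3 libraries each, which share the time course, so they carry no p. In the 33 treated libraries, without the day 0 to day 0.5 rise, Ptch1 and Gas1 had r of 0.94 (0.77 in all 36), Ptch1 and Cdon -0.47 and Hhip and Cdon -0.77.

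The gene most like Ptch1 among 9965 genes with a mean of at least 10 CPM was Pknox2 (r = 0.97 over 36 libraries), followed by Sox1 (0.97), a transcription factor of neural progenitors, and Atoh8 (0.96). For Hhip they were Hpcal1 (0.98), the Wnt receptor Fzd7 (0.97) and Zbtb16 (0.95). Among the genes most like Gas1 were Pax6 (0.97) and Irx3 (0.96), both transcription factors of neural progenitors. Smo (Ncaph2, Med9 and Thap11, 0.97 to 0.96) and Sufu (Mdk, Ints7 and Myg1, 0.98 to 0.97) also had close neighbours, whereas Cdon (Ptprz1 0.91, Adamts9 0.86, Myo10 0.85) and Boc (Tmem132c 0.86, Pdgfa 0.84, Tns3 0.82) had none above 0.91. Sox1, for example, had 4.16 ± 0.264 TPM on day 0, 76.6 ± 3.25 on day 0.5 and 14.4 ± 1.48 on day 7.

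At the end of the course, 6 of the 7 members differed from day 0, 3 higher and 3 lower, beside 85.3% of all genes called, 44.1% higher and 41.2% lower. Ptch1 (log2 1.94), Hhip (2.49) and Cdon (0.73, SE 0.07, adjusted p = 3.21e-12, edgeR) were higher on both scales. Smo (log2 -0.42), Sufu (-0.43) and Gas1 (-0.52) were lower in counts but not in TPM (log2 -0.06, -0.03 and -0.16, adjusted p = 0.138, 0.388 and 0.0843, limma), since TPM ran above scaled counts by a median of log2 0.36 between these days. Boc changed sign with the scale, at log2 -0.12 in counts (adjusted p = 0.112, edgeR) and 0.24 in TPM (adjusted p = 0.00565, limma), and its call in counts appeared without replicate 1 of day 0 (log2 -0.18, adjusted p = 0.0306). Against day 0.5, day 7 gave 6 members lower and Cdon higher, beside 84% of all genes called and 40.1% lower, with the largest falls in Ptch1 (log2 -2.48, SE 0.05, adjusted p = 2.26e-31, edgeR) and Gas1 (-2.43, SE 0.08, adjusted p = 4.39e-24).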

How the data were processed

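PolyA RNA was sequenced from 36 libraries (KAPA mRNA kit), 3 for each of 12 time points, grouped by the labels. The submitters' processing notes name bcl2fastq 2.20.0, RSEM and GRCm38. Which aligner and annotation release were used, and whether counting used strand, is not given in the sources used here. The values the authors deposited are expected counts from RSEM for each gene and a table of TPM per gene. Each has 51912 identifiers, of which 51633 matched a symbol. Of all expected counts, those at 0 included, 6.87% are not whole. Expected counts were rounded and tested with edgeR 4.0.16 (TMM, filterByExpr by time point, quasi-likelihood test, all 36 libraries in 1 fit, 24 residual degrees of freedom, Benjamini-Hochberg threshold 0.05). The filter kept 17990 of 32047 genes with a count. The approximate SE is the absolute log2 fold change over the square root of F. Alternatives were DESeq2 1.42.0, median-of-ratios scaling, no filter, only the libraries compared, a replicate block, leaving out each library, and limma 3.58.1 on log2(TPM + 1) and log2(TPM + 0.1), computed from the deposited TPM. No pair of replicates held identical values. Depth of 26567321 to 35757989 counts per library limits precision most for Hhip on day 0 (35 to 47 counts). The edgeR step was tested on simulated data. Named genes are the 7 members, the 3 genes most correlated with each over 36 libraries, Gli1, Gli2, Gli3 and Shh, and up to 4 called genes of each pathway list with the largest change; some genes under this rule are not reported here. The ratios of TPM, Sox1 as an example of level and the implied transcript lengths were chosen after values were seen. The members and lists were chosen with earlier results of these data known. Promoter windows come from RefSeq (GRCm38.p6) and coordinates and exon overlaps from GENCODE M21.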

Additional observations from a re-analysis of the deposited data

How the results depend on the processing

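Of 1253 member changes recomputed under the alternatives, 1156 kept their call, 75 were no longer called, 14 became called and 8 turned in direction. A change of sign without a call either way, in 50 of 1183 values, was not counted as turned. The turned values all came from limma on TPM, with a pseudocount of 0.1 and 1: Cdon at day 2 against day 1.5 (0.33 and 0.30), Sufu at the same step (0.00077 for both) and at day 4 against day 3.5 (0.0997 and 0.0976), and Boc at day 7 against day 0 (0.24 and 0.22). TPM and scaled counts differ by a median of log2 0.36 at day 7 against day 0. Members called at day 3 against day 2.5 were 1 with either limma setting, and at day 5 against day 4 they were 3 with no filter and 3 with only the libraries compared. Leaving out 1 library gave 2 to 4 members called at day 2 against day 1.5, 1 to 2 at day 3 against day 2.5, 1 to 4 at day 5 against day 4 and 1 to 3 at day 7 against day 6; the cause was not tested. The number of genes called over all genes stayed within 1.5 times in all 179 recomputed counts. The day of the highest or lowest mean moved in 7 of 56 settings: highest to day 1.5 for Smo (CPM, and without replicate 1) and Sufu (CPM, and without replicate 2), highest to day 1 for Gas1 without replicate 1, lowest to day 1.5 for Cdon without replicate 3 and lowest to day 2.5 for Boc in CPM. Of 63 recomputed correlations between members, 24 moved by 0.1 or more, 13 on log2(TPM + 1), 11 in the 33 treated libraries and 0 over the 12 time-point means, and 5 changed sign (4 on log2(TPM + 1), 1 in the treated libraries). Replicate numbers did not pair the libraries (198 same-number pairs, r of their deviations -0.0897 to 0.113, 1 pair above 0.1), and a fit with the replicate number as a block changed 0 of 98 member calls.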
